A study of Rattus norvegicus with 9 samples.

Results

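The TNF superfamily was examined in the RNA-seq data of rat knee tissue. The members were the genes named Tnf, Lta, Ltb, Ltbr, Fas, Faslg, Cd27, Cd40, Cd40lg and Cd70 and every gene whose symbol begins with Tnfsf or Tnfrsf, except Tnfsf11, Tnfrsf11a and Tnfrsf11b. A member also had to be above 0 TPM (a level that allows for the length of each transcript) in at least 3 of the 9 libraries. This rule gave 36 genes of the 16512 that passed the same filter and of the 17602 listed, and the filter removed no gene of these names. They comprised 16 ligands and 20 receptors, of which 5 receptors carry a death domain.

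All rats were wild-type male Lewis rats of 10 to 12 weeks. The intact group (n = 3 libraries) was synovium around the medial meniscus of knees without surgery. The sham group (n = 3) was the same tissue 1 week after the joint capsule was opened and closed. The pMx group (n = 3) was the tissue regrowing 1 week after partial meniscectomy, the removal of the anterior part of the medial meniscus, and the synovium around it was trimmed away before extraction. Surgery and tissue therefore both differ between the pMx and the sham or intact libraries, and their shares in a difference cannot be told apart. The labels call the 3 libraries of each group biological replicates, and the sources do not state how many animals gave each one, so the p-values measure the spread between these libraries. RNA integrity, as the study measured it before sequencing, also differed between the groups, lowest in intact and highest in pMx, and its part in the differences cannot be told apart from that of the groups.

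TNF superfamily ligands are mostly membrane proteins that act as trimers, and some are cut from the cell surface to act at a distance. Their receptors fall into those with a cytoplasmic death domain, which can recruit caspases through adaptors such as FADD, and those that bind TRAF adaptors and switch on NF-kB. In the synovium TNF itself is known as a driver of inflammation and matrix breakdown, while TWEAK and its receptor Fn14 are known for their part in tissue repair and lymphotoxin, BAFF and APRIL for lymphocyte organization and survival.

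Between pMx and sham, 4 of the 36 members had an adjusted p below 0.05 together with a log2 difference larger than 1 in either direction: Tnfrsf12a, Tnfrsf22, Tnfsf10 and Tnfsf15. Their promoter windows are shown because these members carry the largest differences in the comparison and show how unlike their start regions are. The windows come from RefSeq on the rat assembly GRCr8, run from 250 bases before to 50 bases after the annotated start of the gene, are written 5′ to 3′ on the strand of the gene, and were found for 28 of the 36 members. The submitters' processing notes name the older build mRatBN7.2 for the reads, so the positions apply to GRCr8 only. Capitals mark matches to any of 6 motifs searched on both strands. The window of Tnfrsf12a lies at chr10:13213599-13213898 on the minus strand, that of Tnfrsf22 at chr1:208285774-208286073 on the minus strand, that of Tnfsf10 at chr2:112136689-112136988 on the plus strand and that of Tnfsf15 at chr5:82171609-82171908 on the minus strand.
Tnfrsf12a: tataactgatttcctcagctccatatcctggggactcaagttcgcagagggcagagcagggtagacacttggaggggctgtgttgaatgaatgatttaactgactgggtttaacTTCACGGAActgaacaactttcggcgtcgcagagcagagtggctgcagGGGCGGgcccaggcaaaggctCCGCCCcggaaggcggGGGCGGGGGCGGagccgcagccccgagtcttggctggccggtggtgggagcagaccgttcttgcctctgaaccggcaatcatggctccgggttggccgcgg
Tnfrsf22: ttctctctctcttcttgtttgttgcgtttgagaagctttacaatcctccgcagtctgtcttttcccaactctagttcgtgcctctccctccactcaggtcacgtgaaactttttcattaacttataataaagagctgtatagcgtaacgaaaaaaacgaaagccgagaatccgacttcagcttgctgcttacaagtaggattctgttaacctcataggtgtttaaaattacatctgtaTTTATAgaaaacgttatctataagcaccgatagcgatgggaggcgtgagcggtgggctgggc
Tnfsf10: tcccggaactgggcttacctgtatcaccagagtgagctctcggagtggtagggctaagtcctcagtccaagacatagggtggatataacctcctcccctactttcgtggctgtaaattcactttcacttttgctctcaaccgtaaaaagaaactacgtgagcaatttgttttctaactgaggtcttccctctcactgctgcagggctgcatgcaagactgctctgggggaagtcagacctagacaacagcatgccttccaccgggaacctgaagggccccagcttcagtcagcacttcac
Tnfsf15: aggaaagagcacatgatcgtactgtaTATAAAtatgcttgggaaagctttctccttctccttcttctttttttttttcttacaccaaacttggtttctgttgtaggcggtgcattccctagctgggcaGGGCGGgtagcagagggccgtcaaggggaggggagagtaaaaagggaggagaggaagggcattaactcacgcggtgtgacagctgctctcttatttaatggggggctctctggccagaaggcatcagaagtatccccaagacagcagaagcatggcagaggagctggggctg

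The Tnfrsf12a window was the richest in G and C among them (61.3%), and the Tnfrsf22 window was the poorest (42.7%), with 51.3% for Tnfsf10 and 50.7% for Tnfsf15. In the Tnfrsf12a window a GAS motif (TTCNNNGAA, read by STAT factors) covers positions -136 to -128 from the start, and 4 Sp1 GC boxes (GGGCGG) lie between positions -88 and -40. The Tnfrsf22 window held a TATA box sequence (TATAAA) at positions -12 to -7, on the opposite strand. In the Tnfsf15 window there was a GC box at positions -122 to -117 and a TATA box sequence at positions -224 to -219. The Tnfsf10 window held none of the 6 motifs, which says only that these letters are not in it.

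The NF-kB motif (GGG, 2 free letters, TTTCC) was in the windows of 3 members, Cd70, Ltb and Tnfrsf4, and in 1.51% of the 27457 promoter windows of the same length. The AP-1 motif (TGANTCA) was also in 3 member windows, Fas, Tnfrsf1b and Tnfrsf8, and in 7.33% of all windows. Fas, Tnfrsf1b and Tnfsf13b held the core motif of the interferon response element (GAAA, 2 free letters, GAAA), which was in 3.77% of all windows. The GAS motif was in Lta, Ltb and Tnfrsf12a and in 8.68% of all windows. GC boxes were in 15 member windows and in 34.9% of all, and TATA box sequences in 6 member windows and in 14.3% of all. No matches overlapped in the windows printed above. These matches describe the letters of the windows and are not binding sites.

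The libraries were checked against marker genes of the cell types that this tissue can hold. The 8 synovial fibroblast markers summed to 8380 to 11327 TPM in the intact, 12572 to 13878 TPM in the sham and 26209 to 29044 TPM in the pMx libraries, and no defining marker of them was at 0. The markers of this list did not all move the same way: from sham to pMx Col1a1, Lum and Thy1 rose by 1.81, 1.70 and 1.69 on the log2 scale, Dcn and Cd55 fell by 0.94 and 1.02, and Prg4 fell by 1.00 from intact to sham. The 8 macrophage markers summed to 699.5 to 1145 TPM, 1257 to 1316 TPM and 999.1 to 1296 TPM in the same order. All 5 adipocyte markers fell from sham to pMx, with sums of 4278 to 4610 TPM in sham and 301.9 to 475.3 TPM in pMx, and so did 5 of 7 B cell markers (42.9 to 56.4 TPM against 5.48 to 7.19 TPM), 4 of 5 mast cell markers (99.3 to 164.9 TPM against 8.72 to 10.07 TPM) and 4 of 5 Schwann cell markers (108.2 to 153.7 TPM against 7.15 to 9.13 TPM). Of 5 smooth muscle and pericyte markers, 3 fell from sham to pMx, with sums of 3242 to 5197 TPM in intact, 2343 to 2737 TPM in sham and 1225 to 1453 TPM in pMx, and Myh11 and Acta2 also fell from intact to sham. The 8 T cell markers summed to 133.2 to 217.5 TPM in intact, 232.8 to 250.1 TPM in sham and 162.9 to 205.5 TPM in pMx, and 4 of them rose from intact to sham. Most of this sum was Cd4, at 128 to 209 TPM in intact, 214 to 230 TPM in sham and 144 to 185 TPM in pMx. Cd4 passed in no comparison, and the sum says little about the other T cell markers. From sham to pMx Cd8a rose by 1.00, Cd3g fell by 0.53, and no other T cell marker passed. The 5 neutrophil markers summed to 63.3 to 183.7 TPM in intact, 41.4 to 51.2 TPM in sham and 8.88 to 25.3 TPM in pMx. The 6 NK cell markers summed to 4.56 to 12.3, 6.32 to 10.8 and 2.93 to 5.04 TPM in that order. The 5 dendritic cell markers summed to 11.3 to 17.4, 15.3 to 22.6 and 41.05 to 44.6 TPM. From sham to pMx Mpo, Klrk1, Clec9a and Xcr1 fell by 3.57, 1.11, 0.70 and 0.50. Itgax rose by 2.20, and no other marker of these lists passed there. The B cell markers Pax5 and Cr2, the mast cell marker Fcer1a and the Schwann cell marker Mag were each at 0 in at least 1 pMx library. The skeletal muscle markers ranged from 51.2 to 35519 TPM in the intact libraries and were highest in intact replicate 3. Library depth is unknown, because TPM keeps no read numbers.

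**Figure D1:**
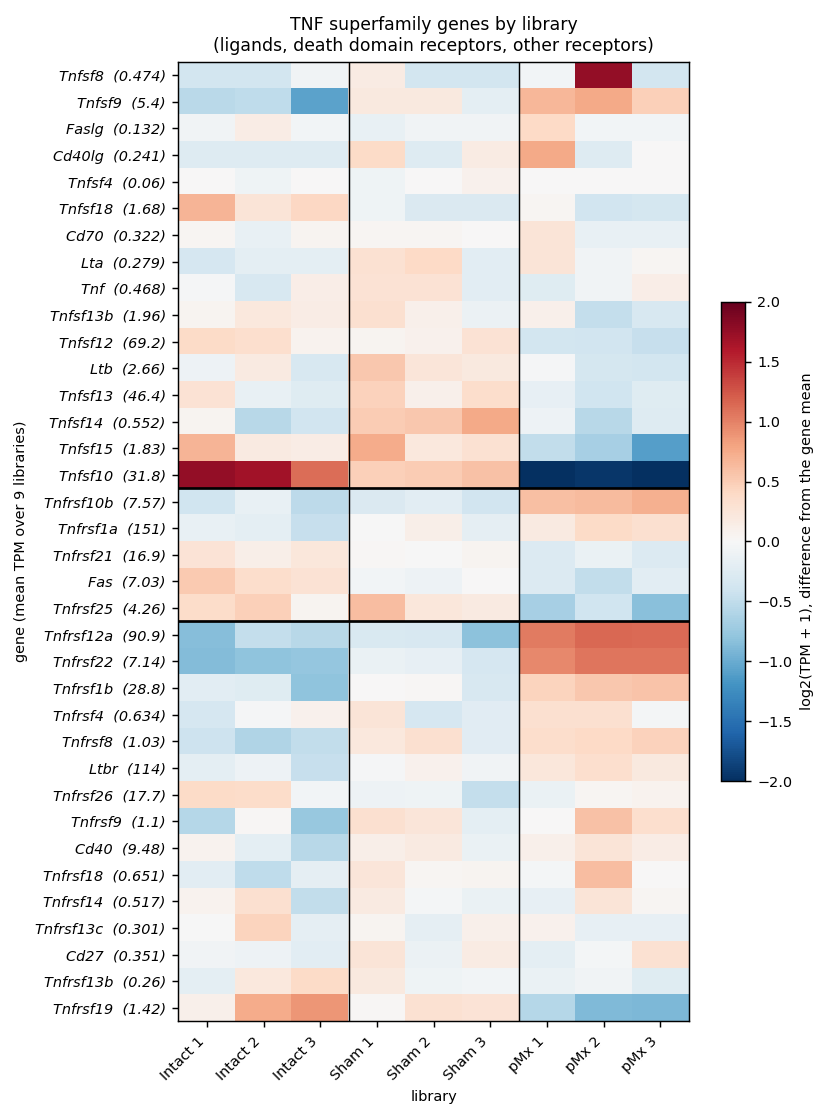
Level of each of the 36 members in the 9 libraries, as log2(TPM + 1) minus the mean of the gene over the 9 libraries (colour scale from -2 to 2, values beyond it shown at the end colours). Rows are ligands, death domain receptors and other receptors, each ordered by the pMx to sham difference, with the mean TPM in brackets. Tnfsf10 goes from high in the intact to low in the pMx libraries, and Tnfrsf12a and Tnfrsf22 go the other way.

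Receptor transcripts exceeded ligand transcripts in every library. Summed over the 20 receptors, the level was 366 ± 36.2 TPM in the intact, 412 ± 39.3 TPM in the sham and 606 ± 29.1 TPM in the pMx group (mean ± SD, n = 3). The 16 ligands together gave 202 ± 32.6 TPM, 179 ± 10.6 TPM and 110 ± 5.21 TPM. Every pMx library had a higher receptor sum and a lower ligand sum than every other library. Without Tnfrsf12a the receptor sums were 316 ± 37.4, 357 ± 29.0 and 439 ± 22.6 TPM, and without Tnfsf10 the ligand sums were 140 ± 19.2, 150 ± 10.3 and 105 ± 5.59 TPM. The pMx libraries remained the highest for the receptors and the lowest for the ligands after these genes were left out.

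Tnfrsf1a, the main TNF receptor, was the most abundant member in each group. By mean TPM among the 36 members, Ltbr had rank 2 in the intact and sham groups and rank 3 in the pMx group, and Tnfrsf12a had rank 5 in intact and sham and rank 2 in pMx. Tnfsf10 had rank 4 in the intact group, 6 in sham and 14 in pMx. Members with a group mean of at least 10 TPM numbered 9 in the intact, 9 in the sham and 11 in the pMx group, and those below 1 TPM numbered 16, 13 and 15.

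Between pMx and sham, 15 of the 36 members passed an adjusted p below 0.05 in limma. Of these, 6 were higher in pMx (16.7%, where 17.7% of all 16512 genes were called higher) and 9 were lower (25%, where 18.9% of all genes were called lower). The shares are near those of all genes and are no result about the family as a whole. By role, 5 of 20 receptors rose and 3 fell, while 1 of 16 ligands rose and 6 fell. The median log2 difference was 0.15 over the receptors and -0.14 over the ligands, beside -0.01 over all genes tested. Past the fold threshold as well were 2 higher members (3.36% of all genes) and 2 lower members (4.85% of all genes). All 6 risen members and 8 of the 9 fallen ones were among the 22 members with a mean of at least 1 TPM. In bulk tissue, fewer cells that express a gene and less RNA of it per cell cannot be told apart.

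Between sham and intact, 7 members passed the adjusted p, 4 higher in sham (6.73% of all genes were called higher) and 3 lower (5.97% of all genes). No member passed both thresholds there, where 1.42% of all genes were called higher and 0.533% lower. An unadjusted limma p below 0.05 was found for 15 members. The share of all genes at that level is not given here, so that count is no result about the family. The count of 7 was 3 without sham replicate 1 and 2 without sham replicate 2, and Tnfrsf22 and Tnfsf10 were the members that passed in every fit. With 1 library left out, 1 member passed both thresholds without intact replicate 1 (Tnfsf14) and without intact replicate 3 or sham replicate 3 (Tnfsf10). Between pMx and intact, 18 members passed, 10 higher (23.4% of all genes) and 8 lower (27.1% of all genes), and 4 higher (6.4% of all genes) and 3 lower (7.89% of all genes) passed both thresholds. The 3 comparisons share libraries, so they are not separate evidence for a member.

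**Figure D2:**
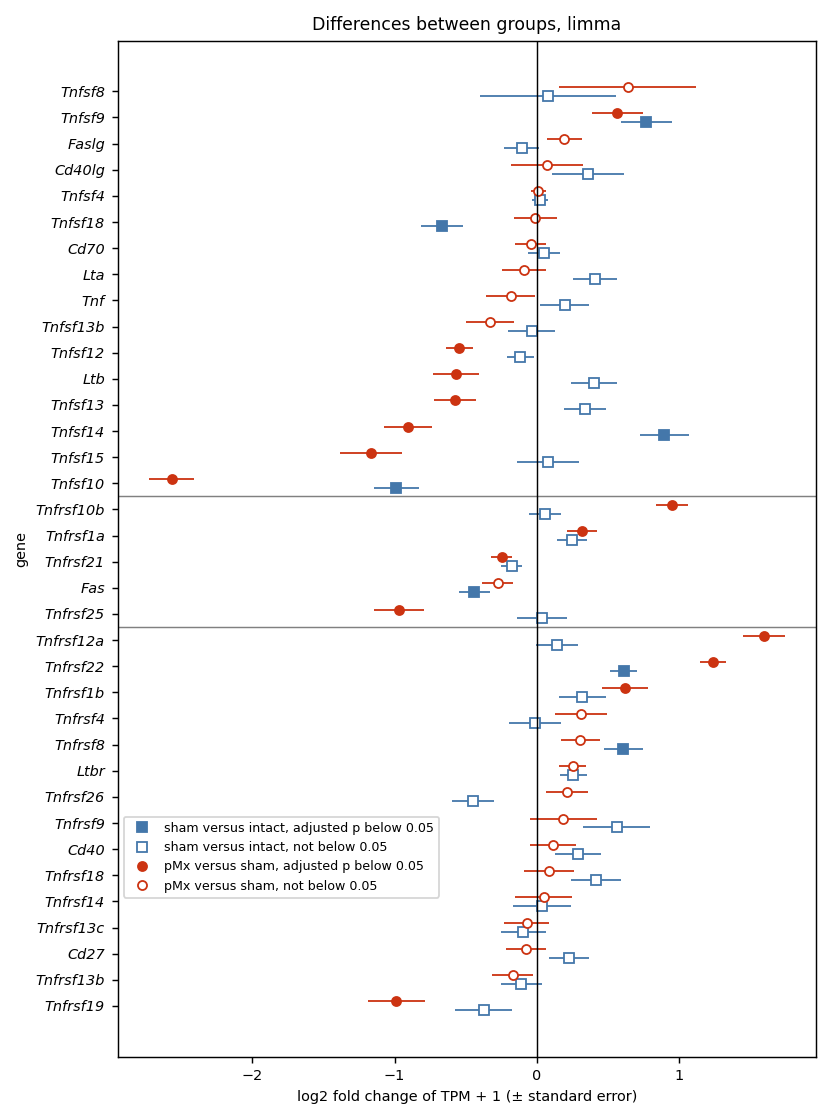
Log2 fold change of TPM + 1 for each member, pMx versus sham (circles) and sham versus intact (squares), with standard errors from limma. Filled symbols have an adjusted p below 0.05 (15 and 7 of 36 members). All absolute values above 1 belong to pMx versus sham, with Tnfsf10 lowest and Tnfrsf12a highest.

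The TWEAK pair showed opposite differences in its ligand and its receptor. Tnfrsf12a encodes Fn14, a small TRAF-binding receptor of TWEAK that is known to be induced in injured tissue. It was 42.5, 55.3 and 52.1 TPM in the intact, 62.0, 61.6 and 43.1 TPM in the sham and 159, 172 and 171 TPM in the pMx libraries. The pMx libraries lay far above all others, and the sham and intact libraries overlapped. Tnfrsf12a was 3.01-fold higher in pMx than in sham, a log2 difference of 1.59 ± 0.15 (SE, limma adjusted p = 0.000119). From intact to sham the log2 difference was 0.14 (adjusted p = 0.586). With 27.6 ± 0.47% of the summed receptor TPM in pMx, against 13.4 ± 1.5% in sham, Tnfrsf12a took up a larger part of the receptor pool.

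Tnfsf12, the gene of TWEAK, was the most abundant ligand in every group. It was 88.3, 85.7 and 71.0 TPM in the intact, 70.4, 71.6 and 83.2 TPM in the sham and 52.0, 51.7 and 49.1 TPM in the pMx libraries. All pMx libraries were below all others, and sham and intact overlapped. Tnfsf12 fell by 0.55 ± 0.10 on the log2 scale from sham to pMx (limma adjusted p = 0.00247), and the sham to intact difference was -0.12 (adjusted p = 0.467). The ratio of ligand to receptor was 1.66 ± 0.37 in intact, 1.41 ± 0.45 in sham and 0.305 ± 0.020 in pMx (mean ± SD, n = 3). The ligand was thus the more abundant transcript in all 6 intact and sham libraries and the less abundant in the 3 pMx libraries. In RefSeq, Tnfsf12 lies beside Tnfsf13 and both overlap the gene Eif4a1l, and how the counting split shared reads is not given in the sources used here.

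The largest difference of any member was in the TRAIL system. Tnfsf10 encodes TRAIL, a ligand that can trigger apoptosis. Its level was 71.2, 67.6 and 45.2 TPM in the intact, 28.9, 29.6 and 31.0 TPM in the sham and 3.73, 4.53 and 4.39 TPM in the pMx libraries. The groups did not overlap and stood in the order intact, sham, pMx. Tnfsf10 fell by 2.56 ± 0.16 on the log2 scale from sham to pMx (limma adjusted p = 2.63e-05), with the pMx mean at 0.142 times the sham mean. It also fell by 0.99 ± 0.16 from intact to sham (adjusted p = 0.00896). The call held under every one of the 17 alternatives in both comparisons. Its part of the summed ligand TPM went from 30.2 ± 2.75% in intact to 16.6 ± 0.99% in sham and 3.87 ± 0.54% in pMx. The summed adipocyte, B cell, T cell, NK cell, mast cell, neutrophil, Schwann cell and smooth muscle markers were lower in pMx than in sham. The smooth muscle and neutrophil sums followed the same order of intact, sham and pMx as Tnfsf10, without overlap. The part of any of these cells in the Tnfsf10 differences was not tested. Across the intact libraries the adipocyte markers ranged from 3295 to 6976 TPM and the B cell markers from 45.8 to 65.4 TPM, which overlaps the sham ranges for both lists. The adipocyte sum was mostly Fabp4, at 3186 to 5634 TPM in intact and 3405 to 3595 TPM in sham, and says little about the other markers. The median log2 difference of the 5 adipocyte markers from intact to sham was 0.85, and none of them passed there. The B cell sum was mostly Fcmr, at 34.4 to 49.0 TPM in intact and 35.5 to 47.2 TPM in sham, and says little about the other markers. From intact to sham the median log2 difference of the 7 B cell markers was -0.44. Pax5 was called lower there, and no B cell marker was called higher.

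Tnfrsf10b, the rodent death receptor for TRAIL, went up. It was 5.15, 6.33 and 4.66 TPM in the intact, 5.61, 6.04 and 5.19 TPM in the sham and 11.3, 11.6 and 12.3 TPM in the pMx libraries. All pMx libraries were above all others, and sham and intact overlapped. The log2 difference of pMx against sham was 0.95 ± 0.11 (limma adjusted p = 0.000368), a 2.09-fold higher mean, and that of sham against intact was 0.06 (adjusted p = 0.784). Tnfsf10 exceeded Tnfrsf10b 11.4 ± 2.15 times in the intact and 5.34 ± 0.56 times in the sham group, and the ratio was 0.359 ± 0.030 in the pMx group. Tnfrsf10b overlaps Rhobtb2 in RefSeq, so its reads may include some of that gene.

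Tnfrsf22 encodes a TRAIL receptor of rodents that lacks a death domain. It was 2.84, 3.02 and 3.11 TPM in the intact, 5.42, 5.31 and 4.55 TPM in the sham and 12.6, 13.7 and 13.7 TPM in the pMx libraries. The groups did not overlap and rose in the order intact, sham, pMx. Tnfrsf22 rose by 0.61 ± 0.09 on the log2 scale from intact to sham (limma adjusted p = 0.00759) and by 1.24 ± 0.09 from sham to pMx (adjusted p = 4.75e-05), and both calls held under all 17 alternatives. Tnfrsf26, its neighbour on chromosome 1 and a receptor of little-known role, was 23.1, 22.7 and 16.7 TPM in the intact, 16.3, 16.3 and 12.3 TPM in the sham and 15.8, 18.0 and 18.3 TPM in the pMx libraries. Its pMx and sham libraries overlapped (log2 difference 0.21, adjusted p = 0.315), and its sham to intact difference was -0.45 (adjusted p = 0.086). These genes are related copies, and reads shared by them would make both values uncertain.

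**Figure D3:**
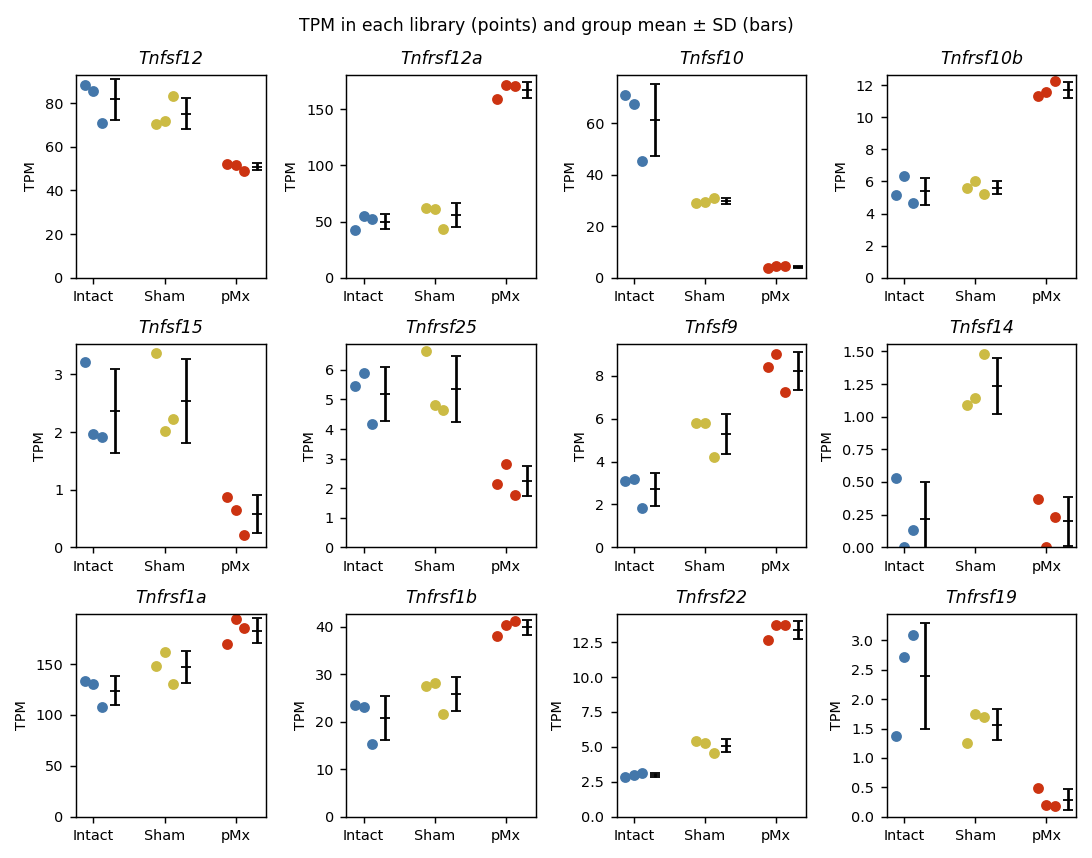
TPM of 12 members in each library (points) with the group mean ± SD (bars, n = 3), each panel on its own axis from 0. The pMx libraries stand apart from sham in every panel, above it for Tnfrsf12a, Tnfrsf10b, Tnfsf9, Tnfrsf1a, Tnfrsf1b and Tnfrsf22 and below it for the other 6.

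The TNF ligand itself was scarce. Tnf was 0.43, 0.16 and 0.60 TPM in the intact, 0.77, 0.78 and 0.26 TPM in the sham and 0.23, 0.38 and 0.60 TPM in the pMx libraries. The groups overlapped, and the log2 difference was -0.18 ± 0.17 between pMx and sham (limma adjusted p = 0.454) and 0.19 ± 0.17 between sham and intact (adjusted p = 0.512). All 9 libraries lay below 1 TPM, a level at which a difference of this size was not detectable with these replicates.

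Tnfrsf1a encodes TNF receptor 1, the death domain receptor that most cells carry. It was 134, 130.3 and 107 TPM in the intact, 148, 161 and 131 TPM in the sham and 169, 194 and 185 TPM in the pMx libraries. The pMx libraries were above all others. The log2 difference of pMx against sham was 0.32 ± 0.11 (limma adjusted p = 0.0467), a call lost under 8 of the 17 alternatives, with adjusted p between 0.0127 and 0.156. Without sham replicate 3 it was 0.156 and without pMx replicate 2 it was 0.142. Against intact, pMx was higher by 0.56 ± 0.11 (adjusted p = 0.00237).

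Tnfrsf1b, TNF receptor 2, is found chiefly on immune and endothelial cells and has no death domain. It was 23.6, 23.1 and 15.4 TPM in the intact, 27.6, 28.0 and 21.7 TPM in the sham and 38.0, 40.3 and 41.1 TPM in the pMx libraries. All pMx libraries were higher than all others, with a log2 difference from sham of 0.62 ± 0.16 (limma adjusted p = 0.0178), a 1.55-fold higher mean. The call was lost without pMx replicate 2 (adjusted p = 0.0537), pMx replicate 3 (0.0554) or sham replicate 3 (0.067). The ratio of Tnfrsf1a to Tnfrsf1b was 6.10 ± 0.78 in intact, 5.72 ± 0.32 in sham and 4.59 ± 0.19 in pMx. Of 8 macrophage markers 1 rose (Cd68, log2 difference 0.47) and 1 fell (Cd163, -2.24), the summed level overlapped between sham and pMx, and the part of these cells in the Tnfrsf1b difference was not tested.

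In the lymphotoxin group the receptor was abundant and the ligands were not. Ltbr, the lymphotoxin-beta receptor of stromal cells, was 98.9, 105 and 81.4 TPM in the intact, 111, 120.0 and 108 TPM in the sham and 132, 142 and 129 TPM in the pMx libraries. No group overlapped another, but the pMx to sham difference of 0.25 ± 0.09 had a limma adjusted p of 0.0686. It passed with median-of-ratios rescaling (adjusted p = 0.0123), in the fit of only 6 libraries (0.0132) and without intact replicate 3 (0.00867). Against intact, Ltbr was higher in pMx by 0.51 ± 0.09 (adjusted p = 0.00219).

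Ltb encodes the membrane partner of lymphotoxin-alpha. It was 2.35, 3.06 and 1.88 TPM in the intact, 4.18, 3.24 and 3.09 TPM in the sham and 2.52, 1.80 and 1.78 TPM in the pMx libraries. The sham libraries were the highest, and pMx and intact overlapped. Ltb fell by 0.57 ± 0.16 from sham to pMx (limma adjusted p = 0.0241), a call lost without pMx replicate 2 (adjusted p = 0.0808), pMx replicate 3 (0.0781) or sham replicate 1 (0.0843). Lta, lymphotoxin-alpha of lymphocytes, was 0, 0.10 and 0.10 TPM in the intact, 0.56, 0.66 and 0.09 TPM in the sham and 0.50, 0.20 and 0.30 TPM in the pMx libraries. It overlapped between sham and each other group, and no comparison passed (adjusted p = 0.7, 0.124 and 0.122 for pMx with sham, sham with intact and pMx with intact). Without sham replicate 3 its sham to intact difference passed (adjusted p = 0.0179). Its pMx to intact difference passed with quantile normalization (0.0426), in the fit of only 6 libraries (0.0364) and without sham replicate 3 (0.024).

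Tnfsf14 encodes LIGHT, which acts on Ltbr and on the herpesvirus entry mediator encoded by Tnfrsf14. Its level was 0.53, 0 and 0.13 TPM in the intact, 1.09, 1.14 and 1.48 TPM in the sham and 0.37, 0 and 0.23 TPM in the pMx libraries. The sham libraries were above all others, and pMx and intact overlapped. Tnfsf14 rose by 0.89 ± 0.17 from intact to sham (limma adjusted p = 0.0156) and was lower by 0.91 ± 0.17 in pMx than in sham (adjusted p = 0.00373). The rise was not called with a pseudocount of 0.1 (log2 difference 2.44, adjusted p = 0.0604) or without sham replicate 2 (adjusted p = 0.0538), and the fall was -2.41 with that pseudocount. Tnfrsf14 ranged from 0.06 to 0.86 TPM over the 9 libraries and passed in no comparison.

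The TL1A pair fell together in pMx. Tnfsf15, the gene of TL1A, a ligand known from endothelium and myeloid cells, was 3.21, 1.97 and 1.91 TPM in the intact, 3.37, 2.02 and 2.23 TPM in the sham and 0.87, 0.65 and 0.22 TPM in the pMx libraries. Its receptor gene Tnfrsf25, which encodes the death domain receptor DR3, was 5.46, 5.91 and 4.16 TPM in the intact, 6.63, 4.81 and 4.63 TPM in the sham and 2.13, 2.80 and 1.78 TPM in the pMx libraries. For both genes all pMx libraries were below all others, and sham and intact overlapped. The pMx to sham log2 difference was -1.17 ± 0.22 for Tnfsf15 (limma adjusted p = 0.0034) and -0.97 ± 0.18 for Tnfrsf25 (adjusted p = 0.00295). Both calls held under all 17 alternatives. The low level of Tnfsf15 makes its fold depend on the pseudocount, with -2.07 at a pseudocount of 0.1, and without pMx replicate 3 its difference was -0.99. Of 6 endothelial markers, 2 fell (Tek and Vwf) and none rose, with sums of 512.4 to 580.7 TPM in sham and 480.9 to 614.5 TPM in pMx, and no endothelial marker was at 0 in any library.

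**Figure D4:**
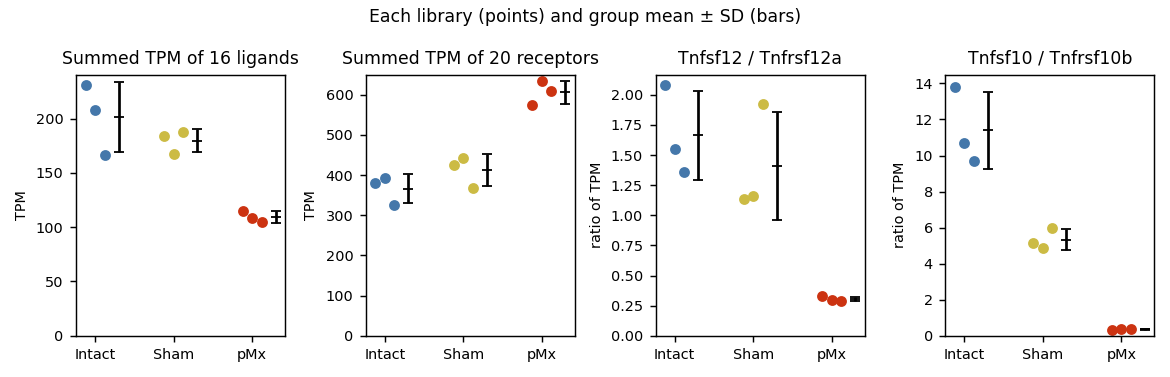
Summed TPM of the 16 ligands and of the 20 receptors, and the ratios of Tnfsf12 to Tnfrsf12a and of Tnfsf10 to Tnfrsf10b, in each library (points) with the group mean ± SD (bars, n = 3), all axes from 0. In the pMx libraries the receptor sum is highest and the ligand sum and both ratios are lowest, with the Tnfsf12 to Tnfrsf12a ratio at 0.305 ± 0.020.

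Fas, the death domain receptor that Fas ligand engages, decreased stepwise. It was 10.3, 8.98 and 8.56 TPM in the intact, 6.53, 6.28 and 6.85 TPM in the sham and 5.48, 4.55 and 5.76 TPM in the pMx libraries. Every sham library was below every intact one and above every pMx one. Fas fell by 0.72 ± 0.11 from intact to pMx (limma adjusted p = 0.000677) and by 0.44 ± 0.11 from intact to sham (adjusted p = 0.0342), the latter lost under 7 of 17 alternatives with adjusted p up to 0.115. Between pMx and sham the difference was -0.27 ± 0.11 (adjusted p = 0.0796). Faslg, the ligand of cytotoxic lymphocytes, was 0.07, 0.25 and 0.08 TPM in the intact, 0.01, 0.07 and 0.07 TPM in the sham and 0.48, 0.08 and 0.08 TPM in the pMx libraries. No comparison of Faslg passed.

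Tnfrsf21, which encodes death receptor 6, was 20.4, 18.2 and 19.8 TPM in the intact, 17.2, 16.6 and 17.5 TPM in the sham and 13.7, 15.2 and 13.8 TPM in the pMx libraries, again with no overlap of the groups. The gene fell by 0.25 ± 0.07 from sham to pMx (limma adjusted p = 0.0264), which was lost without pMx replicate 1 (0.0918), pMx replicate 3 (0.0828), sham replicate 1 (0.0745) or sham replicate 3 (0.0846). From intact to pMx it fell by 0.43 ± 0.07 (adjusted p = 0.00129). Among the 5 death domain receptors, 2 thus rose from sham to pMx (Tnfrsf10b and Tnfrsf1a), 2 fell (Tnfrsf21 and Tnfrsf25), and Fas did not pass.

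Tnfrsf19 encodes TROY, a receptor without a death domain. It was 1.38, 2.72 and 3.09 TPM in the intact, 1.26, 1.74 and 1.69 TPM in the sham and 0.49, 0.20 and 0.19 TPM in the pMx libraries. Every pMx library was below every other one, and sham and intact overlapped. Tnfrsf19 fell by 0.99 ± 0.20 from sham to pMx (limma adjusted p = 0.00524), and at a pseudocount of 0.1 the difference was -2.15. Against intact it fell by 1.36 ± 0.20 (adjusted p = 0.000576).

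The costimulatory ligand gene Tnfsf9, which encodes 4-1BB ligand, was the 1 ligand gene of the 16 that rose from sham to pMx. It was 3.10, 3.19 and 1.83 TPM in the intact, 5.81, 5.81 and 4.19 TPM in the sham and 8.41, 9.02 and 7.27 TPM in the pMx libraries. The groups did not overlap and rose in the order intact, sham, pMx. The log2 difference was 0.77 ± 0.18 for sham against intact (limma adjusted p = 0.0302, lost under 4 of 17 alternatives) and 0.57 ± 0.18 for pMx against sham (adjusted p = 0.0395, lost under 7 of 17). The pMx to intact difference of 1.33 ± 0.18 (adjusted p = 0.000372) held under all of them. Tnfrsf9, its receptor 4-1BB on activated T and NK cells, was 0.36, 1.05 and 0.19 TPM in the intact, 1.53, 1.38 and 0.77 TPM in the sham and 1.02, 2.03 and 1.55 TPM in the pMx libraries. The groups overlapped, and the pMx to intact difference of 0.74 ± 0.24 (adjusted p = 0.0275) was lost without intact replicate 1 (0.0774), intact replicate 3 (0.0778), pMx replicate 2 (0.0948) or pMx replicate 3 (0.0698).

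Tnfrsf8, the gene of CD30 on activated lymphocytes, was 0.46, 0.29 and 0.38 TPM in the intact, 1.26, 1.44 and 0.66 TPM in the sham and 1.5, 1.57 and 1.68 TPM in the pMx libraries. The intact libraries were the lowest and the pMx libraries the highest, without overlap. Tnfrsf8 rose by 0.61 ± 0.14 from intact to sham (limma adjusted p = 0.0264, lost under 5 of 17 alternatives) and by 0.91 ± 0.14 from intact to pMx (adjusted p = 0.000638), while the pMx to sham difference was 0.30 (adjusted p = 0.117). With a pseudocount of 0.1 the intact to sham difference was 1.31. Of 8 T cell markers, 4 also rose from intact to sham (median log2 difference 0.84 over the list) and 5 from intact to pMx, among them Cd8a by 1.90, and their part in the Tnfrsf8 differences was not tested. Its ligand gene Tnfsf8 was at 3.36 TPM in pMx replicate 2 and between 0 and 0.44 TPM in the other 8 libraries.

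The GITR ligand gene Tnfsf18 differed in the opposite direction from intact. It was 3.15, 2.11 and 2.46 TPM in the intact, 1.46, 1.13 and 1.13 TPM in the sham and 1.68, 1.00 and 1.03 TPM in the pMx libraries. The intact libraries were above all others, and sham and pMx overlapped. Tnfsf18 fell by 0.67 ± 0.15 from intact to sham (limma adjusted p = 0.0263, lost under 5 of 17 alternatives) and by 0.68 ± 0.15 from intact to pMx (adjusted p = 0.00523). Its receptor gene Tnfrsf18, known from regulatory T cells, was 0.39, 0.14 and 0.42 TPM in the intact, 0.91, 0.66 and 0.67 TPM in the sham and 0.57, 1.48 and 0.62 TPM in the pMx libraries. It was 0.50 ± 0.18 higher in pMx than in intact (adjusted p = 0.0433), a call lost under 8 of 16 alternatives, and without pMx replicate 2 the difference was 0.28 (adjusted p = 0.0856).

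Among the B cell factors, Tnfsf13, the gene of APRIL, was far more abundant than Tnfsf13b, the gene of BAFF. Tnfsf13 was 55.9, 41.0 and 38.3 TPM in the intact, 63.2, 48.8 and 58.0 TPM in the sham and 40.3, 34.3 and 38.2 TPM in the pMx libraries. The sham libraries were above the pMx libraries, and intact overlapped with both. Tnfsf13 fell by 0.58 ± 0.15 from sham to pMx (limma adjusted p = 0.0166), which was lost without pMx replicate 2 (0.061), sham replicate 1 (0.0614) or sham replicate 3 (0.0564). Tnfsf13b was 2.02, 2.39 and 2.23 TPM in the intact, 2.64, 2.12 and 1.69 TPM in the sham and 2.14, 1.09 and 1.35 TPM in the pMx libraries. Its groups overlapped, and the pMx to sham difference of -0.33 (adjusted p = 0.16) passed only without pMx replicate 1 (0.0386). The receptor genes Tnfrsf13b (TACI, 0.05 to 0.62 TPM) and Tnfrsf13c (BAFF receptor, 0.14 to 0.76 TPM) passed in no comparison. The summed B cell markers were lower in every pMx library (5.48 to 7.19 TPM) than in sham (42.9 to 56.4 TPM), and their part in the Tnfsf13 and Ltb differences was not tested.

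Cd40, a receptor of B cells, macrophages and stromal cells, was 9.82, 8.03 and 6.01 TPM in the intact, 10.3, 10.8 and 8.45 TPM in the sham and 10.1, 11.4 and 10.5 TPM in the pMx libraries. Sham overlapped with both other groups, and no comparison passed (limma adjusted p = 0.0662 for pMx with intact, log2 difference 0.40). That comparison passed with median-of-ratios rescaling (0.0243), with quantile normalization (0.0175) and without intact replicate 1 (0.0175). Cd40lg, the ligand of activated T cells, was listed at 0 in all 3 intact libraries. The sham libraries held 0.57, 0 and 0.35 TPM of it and the pMx libraries held 1.04, 0 and 0.21 TPM, and no comparison passed. The remaining T cell costimulators stayed low: Tnfsf4 (OX40 ligand) between 0 and 0.12 TPM, its receptor gene Tnfrsf4 between 0.27 and 1.01 TPM, Cd70 between 0.19 and 0.57 TPM and its receptor gene Cd27 between 0.16 and 0.65 TPM. None of these 4 genes passed in any comparison.

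Genes around the superfamily were read from lists of partners. From sham to pMx, 17.7% of all genes tested were called higher and 18.9% lower. From intact to sham the shares were 6.73% and 5.97%. The list counts are to be read beside these shares and are no result about a list as a whole. Of 5 superfamily genes outside the rule (Eda, Edar, Eda2r, Ngfr and Relt), Ngfr, the low-affinity nerve growth factor receptor, fell by 1.10 from sham to pMx (limma adjusted p = 0.00812). None rose, and none passed between sham and intact. The count of 1 was 2 without intact replicate 3 or pMx replicate 2. Of 10 genes listed with the TRAF adaptors, 3 rose and none fell from sham to pMx. Traf4 rose by 0.87 (adjusted p = 0.000548), Traf7 by 0.38 (0.00974) and Traf3ip1 by 0.27 (0.0493). Traf3ip1 encodes a protein named for binding TRAF3 and is not itself a TRAF. The count of 3 was 2 or 3 under the alternatives. Traf4 was 9.15, 12.1 and 9.47 TPM in the sham and 19.4, 20.04 and 18.8 TPM in the pMx libraries, without overlap. From intact to sham Traf5 fell by 0.66 (adjusted p = 0.0196), and no gene of this list was called there without intact replicate 2, sham replicate 1 or sham replicate 2.

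Among 12 genes of death signalling, 2 rose and 2 fell between sham and pMx, where 17.7% of all genes were called higher and 18.9% lower. Ripk3, the kinase of necroptosis, rose by 0.84 ± 0.09 (limma adjusted p = 0.000287), from 18.6, 16.3 and 16.03 TPM to 29.0, 34.2 and 30.1 TPM. Bid, which links death receptors to mitochondria, fell by 0.52, and Cflar, which encodes the caspase-8 inhibitor FLIP, fell by 0.39. None passed between sham and intact. The count of 4 was 7 without intact replicate 3 and 8 with median-of-ratios rescaling.

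Of 18 genes of NF-kB subunits and inhibitors, 3 rose and 2 fell, where 17.7% of all genes were called higher and 18.9% lower. The median log2 difference of the list was 0.11. The atypical inhibitor family members Nfkbiz and Bcl3 rose by 1.03 (limma adjusted p = 0.0013) and 0.52 (0.0351). Tab2, an adaptor of the kinase TAK1, rose by 0.35 and Tab3 fell by 0.27. Nfkbia, which encodes the inhibitor IkB-alpha and is itself a target of NF-kB, was 99.4, 110.5 and 86.8 TPM in the intact, 74.0, 70.4 and 73.1 TPM in the sham and 45.8, 44.3 and 42.6 TPM in the pMx libraries. Its groups did not overlap, and it fell by 0.44 from intact to sham (adjusted p = 0.0156) and by 0.70 from sham to pMx (adjusted p = 0.000366). The count of 5 in this list was 9 without intact replicate 3 and 2 without any 1 of the pMx libraries, sham replicate 1 or sham replicate 3, and the Nfkbia fall from intact to sham was not called without sham replicate 1 or sham replicate 2.

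Of 12 ubiquitin regulators of the pathway, Sharpin, a subunit of the linear ubiquitin ligase, rose by 0.20 and Xiap, a caspase inhibitor, fell by 0.30 from sham to pMx, and Xiap also fell by 0.36 from intact to sham (limma adjusted p = 0.00965). The count of 2 was 5 without intact replicate 3 and 1 without any 1 of the 6 pMx and sham libraries. Of 5 genes of ligand and receptor shedding, the protease gene Adam10 fell by 0.34 and Frmd8, a partner of the iRhom proteins, fell by 0.28 from sham to pMx, and the count of 2 was 1 without intact replicate 1 or any 1 of the 6 pMx and sham libraries. No shedding gene passed between sham and intact (1 passed without intact replicate 3).

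Of 16 genes known to be induced by TNF in fibroblasts or endothelium, 4 rose and 3 fell from sham to pMx. Over all genes, 17.7% were called higher and 18.9% lower. Ptgs2, the inducible cyclooxygenase, was 1.16, 1.18 and 0.54 TPM in the sham and 15.1, 6.30 and 18.5 TPM in the pMx libraries (log2 difference 2.77 ± 0.35, limma adjusted p = 0.000457). Tnfaip6, the hyaluronan-binding protein TSG-6, rose by 2.25 and Mmp3, the protease stromelysin-1, by 1.68, and Sod2 rose by 0.60. Vcam1, the vascular adhesion molecule, was 130, 108 and 106 TPM in the sham and 30.1, 43.1 and 31.4 TPM in the pMx libraries, a fall of 1.70 ± 0.14 (adjusted p = 7.26e-05). Irf1, an interferon pathway transcription factor, fell by 0.56. From intact to sham, Tnfaip6 rose by 0.89 (adjusted p = 0.0138) and Vcam1 fell by 0.54 (adjusted p = 0.0433). The count of 7 between pMx and sham was 4 without pMx replicate 2 or sham replicate 2, and the count of 2 between sham and intact was 0 without sham replicate 1 or sham replicate 2, 1 without intact replicate 1, intact replicate 2 or pMx replicate 1, and 4 without intact replicate 3. The list held large differences in both directions, and the part of TNF in them was not tested.

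**Figure D5:**
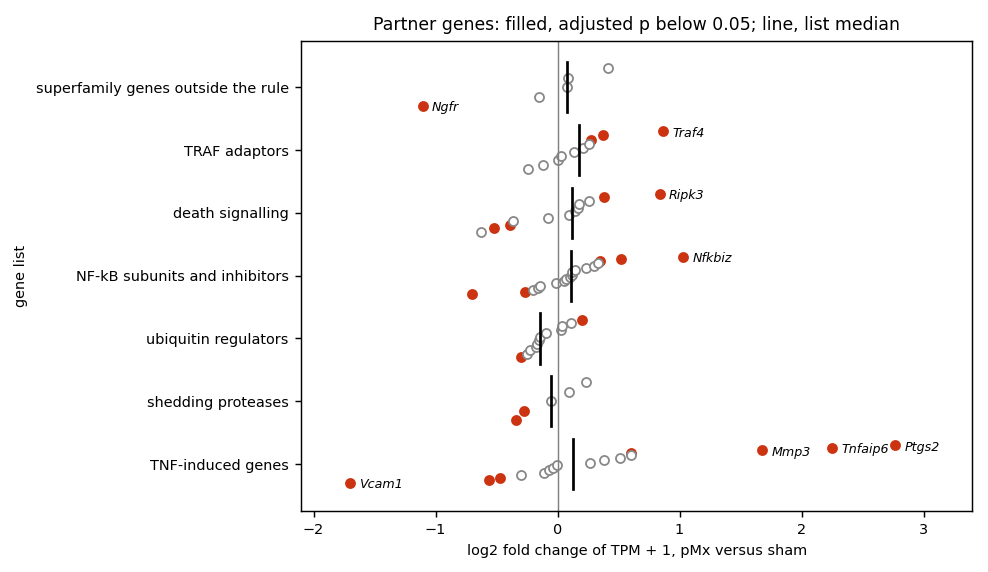
Log2 fold change of TPM + 1 between pMx and sham for the genes of the 7 partner lists (points, filled where the limma adjusted p is below 0.05) with the list medians (lines). The widest spread is among the 16 TNF-induced genes, from Vcam1 at -1.70 to Ptgs2 at 2.77, and genes with an absolute value above 0.8 are named.

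Calls were also counted without intact replicate 3, the library with the most skeletal muscle signal. Without it, 16 members passed between pMx and sham, 8 between sham and intact and 18 between pMx and intact, against 15, 7 and 18 with all libraries. Tnfsf10 then fell by 1.19 from intact to sham (limma adjusted p = 0.000852).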

How the data were processed

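RNA-seq was done on synovium of intact knees, synovium 1 week after sham surgery and regenerating tissue 1 week after pMx, with 3 libraries in each of 3 groups, assigned by their titles. The authors deposited TPM per gene, and mRNA had been selected with oligo-dT beads before stranded libraries were made. The submitters' processing notes name HISAT2 2.0.4 and mRatBN7.2; the counting tool and its strand setting are not given in the sources used here. All 9 value columns were mapped to samples (0 were not). TPM sums to a fixed total per library, so a large rise in some genes lowers the values of others, and it keeps no read number: depth is unknown and precision is the spread of 3 libraries.

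The deposited values were put on a log2 scale after adding 1 TPM, keeping the 16512 genes with a value over 0 in 3 or more libraries. The linear model had 1 mean per group and used all 9 libraries (limma 3.58.1 in R 4.3.3, moderated two-sided test, eBayes with trend), and p-values were adjusted by Benjamini-Hochberg over all genes of a comparison. A gene passed at an adjusted p below 0.05, and both thresholds added an absolute log2 fold change above 1, the limits of the study. Fold changes on this scale understate those of low genes; a fold of means is the ratio of mean TPM. The scripts were tested on simulated data. Alternatives were a pseudocount of 0.1, quantile normalization, median-of-ratios rescaling, no filter, a minimum mean of 1 TPM, fits of only the 6 libraries compared, eBayes without a trend, the replicate number as a block and leaving out each of the 9 libraries, 17 in all. A filter on a mean of 1 TPM removes low members, which then had 16 alternatives.

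Every member was named by role, with values in each library for those past the adjusted p in any comparison and for Tnf, Tnfrsf1a, Tnfrsf1b, Lta, Ltb, Ltbr, Fas, Faslg, Cd40, Cd40lg, Tnfsf10, Tnfsf12, Tnfrsf12a and Tnfsf13b. Of each partner list, up to 6 passing genes with the largest difference were named, and some genes of the partner and marker lists are not reported here by name. The members and lists were chosen with earlier results of these data known. Gene neighbours and promoters came from RefSeq tables of GRCr8, in which all 36 member identifiers were found. Figures were drawn in matplotlib 3.10.9 under python 3.11.15.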

Additional observations from a re-analysis of the deposited data

How the results depend on the processing

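Of the 15 members past the adjusted p between pMx and sham, 9 passed under every alternative tried, as did 2 of 7 between sham and intact and 16 of 18 between pMx and intact, and no log2 difference of a called member changed sign. A pseudocount of 0.1 raised the number of members past both thresholds from 4 to 8 between pMx and sham, from 0 to 2 between sham and intact and from 7 to 12 between pMx and intact, since a smaller pseudocount widens the differences of low genes. In the fit of only the 6 libraries compared, 3 members passed the adjusted p between sham and intact. When 1 library was left out, the members past the adjusted p numbered 10 to 16 between pMx and sham, 2 to 8 between sham and intact and 16 to 19 between pMx and intact, and those past both thresholds 3 to 6, 0 to 1 and 5 to 8. The cause of these shifts was not tested. Shares of all genes under the alternatives are not given here, so these counts are no result about the family as a whole. Rescaling moved the median of all genes by less than 0.1 on the log2 scale.

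Same-numbered libraries did not deviate together in every pair: their correlations across genes were 0.035, 0.368 and 0.485 for pMx with sham, 0.002, -0.399 and -0.493 for sham with intact and -0.378, -0.439 and -0.664 for pMx with intact. The numbers were therefore not treated as pairing the samples. With the replicate block, 16, 6 and 18 members passed the adjusted p in the comparisons of pMx with sham, sham with intact and pMx with intact, and 4, 0 and 7 passed both thresholds. The block added Ltbr between pMx and sham (adjusted p = 0.026) and Cd40 between pMx and intact (0.0457), lost Tnfrsf8 between sham and intact (0.0514) and Tnfrsf18 between pMx and intact (0.0839), and changed no other call of a member. With 3 libraries per group and an unknown depth, differences in members below 1 TPM could often not be detected.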
